A study of Mus musculus with 8 samples.

Results

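The Wnt family genes examined here are the secreted Wnt ligands, their Frizzled (Fzd) receptors and the secreted Sfrp and Dkk inhibitors. They were taken by name as every protein-coding gene of the deposited table whose mouse symbol begins with Wnt, Fzd, Sfrp or Dkk followed by a digit. This gave 33 of the 34450 genes in the table, made up of 16 ligands, 10 receptors, 4 Sfrp genes and 3 Dkk genes. RNA came from kidneys of C57BL/6J mice, 8 weeks old, taken on day 3 after ischaemia-reperfusion injury (IRI), in which renal blood flow is stopped and restored. The hypoxia group (4 libraries, numbered 1 to 4) was kept in low oxygen before the injury, which is known as hypoxic preconditioning. The normoxia group (4 libraries, numbered 5 to 8) breathed normal oxygen before it was injured in the same way. Both groups were therefore injured, and no uninjured kidney was analysed here. The labels give neither the length nor the depth of the hypoxia, and do not tie the libraries to individual mice. The p-values therefore measure library-to-library spread alone, part or all of which may be technical.

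Wnt proteins are secreted lipid-modified signals that bind Frizzled receptors on the cell surface. Together with the co-receptors Lrp5 and Lrp6 they stabilise beta-catenin, which enters the nucleus and acts with TCF and LEF factors, while other Wnt proteins act through cell polarity and calcium. Sfrp proteins carry a Frizzled-like domain and bind Wnt proteins outside the cell, and Dkk1 and Dkk2 act on the co-receptors. In the developing kidney Wnt9b and Wnt4 drive the formation of nephrons, and in the adult kidney the pathway is known to be switched on after tubular injury.

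No Wnt family gene passed the test in either direction. Few of all tested genes did, so a count of 0 among 16 does not set the family apart. Of the 33 genes, 16 had a mean of at least 0.5 FPKM (fragments adjusted for transcript length and library size) over the 8 libraries and were tested. Among these, 0 were higher and 0 lower after hypoxia at an adjusted p under 0.05 (limma on log2(FPKM + 0.5), Benjamini-Hochberg over all tested genes), where 0.305% of the 14444 tested genes were higher and 0.602% lower (0.907% in either direction). At a p below 0.05 without adjustment the count was also 0 of 16, against 9.36% of all tested genes. The hypoxia and normoxia values overlapped for all 16, while they were separate for 4.92% of tested genes (1.86% higher, 3.06% lower). With TMM scaling, a trimmed-mean scaling that brings most genes of the libraries to a like level, the count was again 0 of 16, against 1.21% of tested genes higher and 1.32% lower. With TMM scaling and without normoxia library 5, 0 of 16 were called, against 5.77% of 14414 genes higher and 5.32% lower. There 3 of 16 (Wnt7b, Fzd4 and Fzd6) had an unadjusted limma p under 0.05, against 25.8% of all tested genes. The log2 changes lay between -0.68 (Fzd2) and 0.64 (Wnt5a), with 8 above and 8 below 0 and a median of 0.015, and the median of all tested genes was -0.14. The adjusted p-values ran from 0.74 to 0.999.

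These estimates were wide. The 95% intervals of the 16 log2 changes reached from -1.60 at the low end (Dkk3) to 1.89 at the high end (Fzd4). For 5 genes the interval lay within 1 of 0 on the log2 scale, and for 7 and 6 genes it reached a log2 change of 1 upward or of 1 downward. A p above the threshold therefore does not show that the groups were alike. In RNA of bulk kidney, fewer cells of a type and less RNA per cell cannot be told apart.

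**Figure D1:**
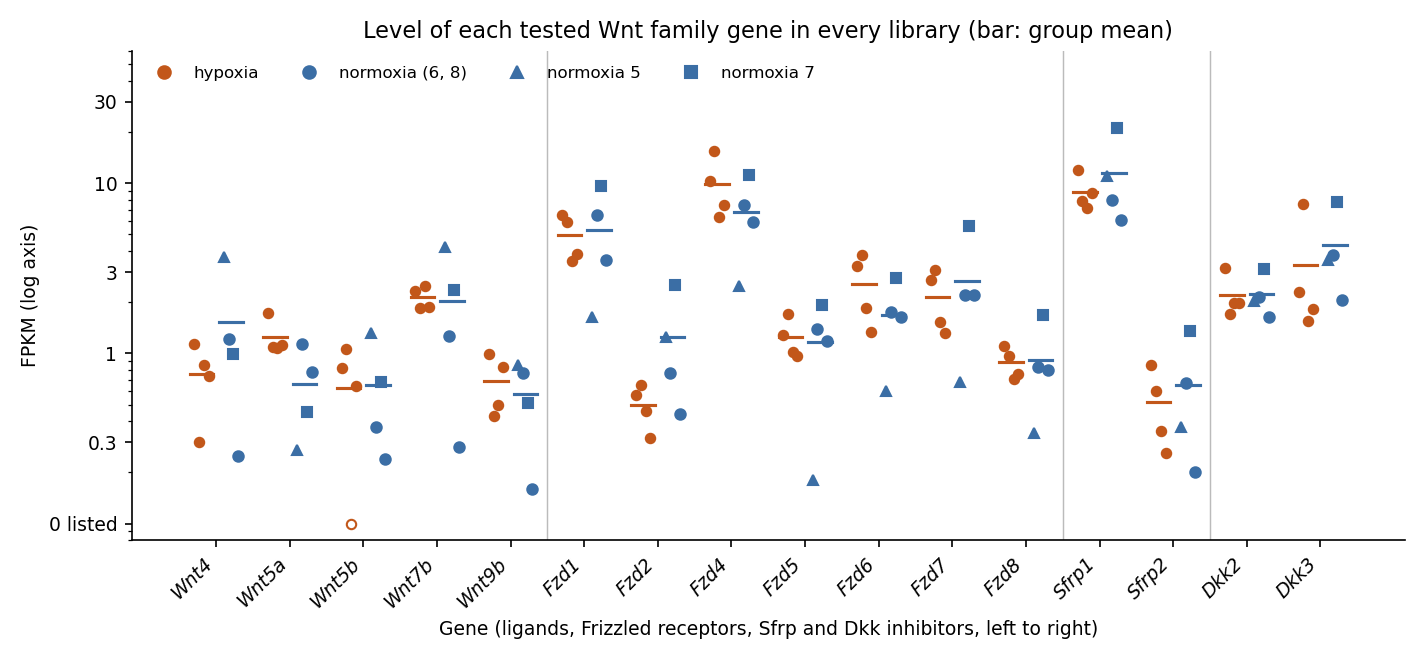
FPKM of the 16 tested Wnt family genes in each library, on a log axis, with hypoxia in orange left of normoxia in blue for each gene and the group mean as a bar. Triangles are normoxia library 5, squares normoxia library 7, and the open circle at the foot of the axis is Wnt5b listed at 0 in hypoxia library 3. The groups overlap for every gene, and library 5 lies lowest for 6 of the 7 receptors.

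Several properties of the libraries touched these genes. Transcripts of nuclear protein-coding genes took between 20.3% (hypoxia library 3) and 60.3% (normoxia library 7) of the assigned fragments, as judged from FPKM times exon length. Mitochondrial protein-coding genes are not part of this protein-coding share. Normoxia library 7 held the highest value of the 8 libraries for 8 of the 16 genes, as it did for 50.4% of all tested genes. Normoxia library 5 resembled the others least, with a mean Spearman correlation of 0.633 against 0.767 to 0.832. It held the lowest value for 7 of the 16 genes and the highest for 3, against 32.2% and 19.5% of all tested genes. Normoxia library 8 held the lowest value for 6 of the 16, against 17.9% of all tested genes. Hypoxia libraries 1 and 2 had a Spearman correlation of 0.924 and libraries 3 and 4 of 0.921, against 0.833 to 0.853 across these pairs. The number of family genes called was 0 with each scaling and each removal of libraries that was run.

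Of the 16 ligands 5 reached the level for testing. The highest of them was Wnt7b, a ligand of the collecting duct lineage. It averaged 2.14 ± 0.32 FPKM in hypoxia and 2.03 ± 1.69 FPKM in normoxia libraries (SD, 4 libraries each). In hypoxia libraries 1 to 4 it stood at 2.33, 1.85, 2.49 and 1.88 FPKM, against 4.22, 1.26, 2.37 and 0.28 FPKM in normoxia libraries 5 to 8. The hypoxia values were close together, and the normoxia values lay on both sides of them. The log2 change was 0.34 ± 0.51 (SE), with a limma adjusted p of 0.994. With TMM scaling and without normoxia library 5 it became 1.04 ± 0.38 (unadjusted p = 0.026, limma adjusted p = 0.129). In that setting 25.8% of all tested genes had an unadjusted p under 0.05 and 11.1% were called. Markers of collecting duct principal cells, where Wnt7b is known from development, summed to 72.9 to 252.4 FPKM in hypoxia and 25.3 to 114.6 FPKM in normoxia libraries. Of these 7 markers 1 was higher as deposited, against 0.305% of all tested genes, and 0 without normoxia library 7. With TMM scaling without library 5 the count was 6, against 5.77% of all tested genes. These are counts of markers. The part of principal cells in the Wnt7b values was not tested.

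Wnt5a, a ligand best known for signalling without beta-catenin, had the largest positive log2 change of the family. It was at 1.73, 1.09, 1.07 and 1.12 FPKM in hypoxia libraries 1 to 4 and at 0.27, 1.14, 0.45 and 0.78 FPKM in normoxia libraries 5 to 8. Normoxia library 6 exceeded hypoxia libraries 2, 3 and 4, so the groups overlapped by that 1 library. The group means were 1.25 ± 0.32 FPKM in hypoxia and 0.66 ± 0.38 FPKM in normoxia (SD, 4 libraries each), giving a log2 change of 0.64 ± 0.41 (SE, 95% interval -0.21 to 1.48, limma adjusted p = 0.765). Its estimate stayed above 0 under the 21 alternatives in which it was tested, which leave out the filter of 2 FPKM.

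Wnt4, which turns kidney mesenchyme into epithelium during development, went the other way in its means, with 0.757 ± 0.346 FPKM in hypoxia and 1.53 ± 1.48 FPKM in normoxia (SD, n = 4 each). Hypoxia libraries 1 to 4 held 1.13, 0.30, 0.86 and 0.74 FPKM, and normoxia libraries 5 to 8 held 3.66, 1.22, 0.99 and 0.25 FPKM. The highest and the lowest value both belonged to normoxia. The log2 change of -0.47 ± 0.48 (SE, limma adjusted p = 0.929) became -0.29 with TMM scaling and 0.23 with TMM scaling without normoxia library 5.

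The remaining tested ligands were lower still. Wnt9b, the ureteric ligand that acts ahead of Wnt4 in development, was at 0.99, 0.43, 0.50 and 0.83 FPKM in hypoxia libraries 1 to 4, against 0.86, 0.77, 0.51 and 0.16 FPKM in normoxia libraries 5 to 8 (log2 change 0.17 ± 0.40, SE, limma adjusted p = 0.999). Wnt5b, a close relative of Wnt5a, was at 0.82, 1.06, 0 and 0.64 FPKM in hypoxia libraries 1 to 4, against 1.31, 0.37, 0.68 and 0.24 FPKM in normoxia libraries 5 to 8 (-0.06 ± 0.44, limma adjusted p = 0.999). The groups overlapped widely in both genes, and normoxia library 8 was low in each. Summed over all 16 ligands, hypoxia libraries held 8.29, 6.13, 5.69 and 6.05 FPKM and normoxia libraries 13.1, 6.14, 7.13 and 2.35 FPKM, so that all 4 hypoxia sums lay between the normoxia extremes of libraries 8 and 5.

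**Figure D2:**
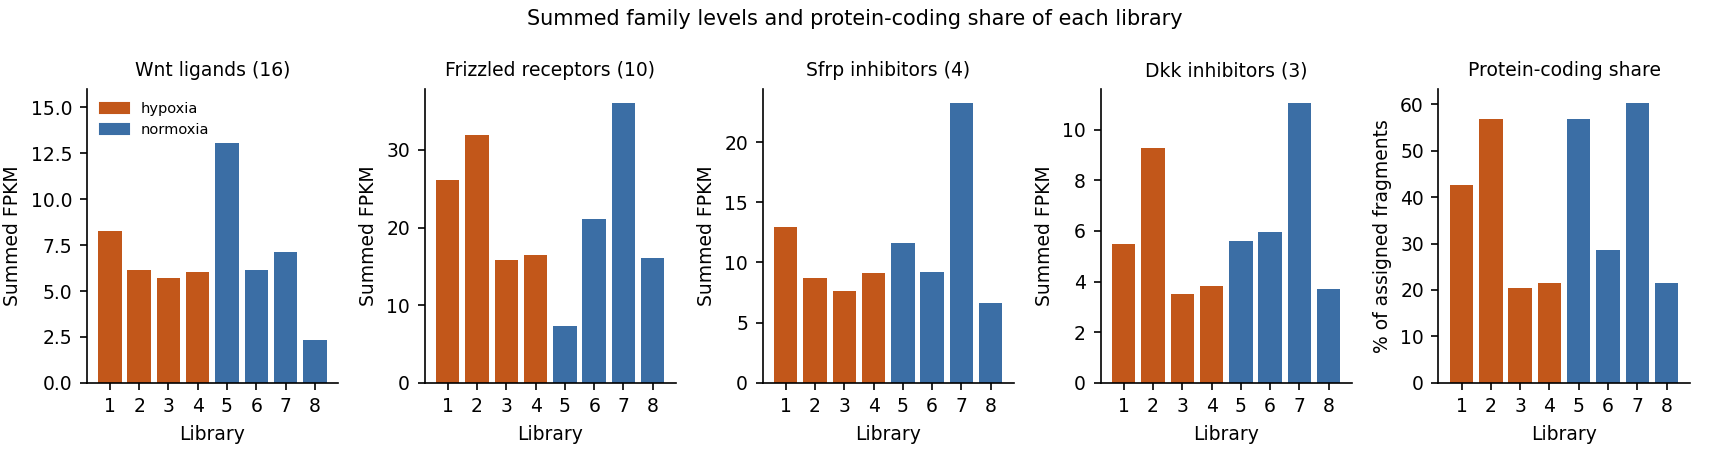
Summed FPKM of the 16 ligands, 10 receptors, 4 Sfrp and 3 Dkk genes in hypoxia libraries 1 to 4 (orange) and normoxia libraries 5 to 8 (blue), and the percentage of assigned fragments in nuclear protein-coding genes. Receptor sums are lowest in normoxia library 5 (7.38 FPKM) although its protein-coding share is 56.8%, and ligand sums are highest there (13.1 FPKM).

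Of 10 Frizzled genes 7 were tested, and their log2 changes ran from -0.68 to 0.60 with a median of 0.088. Fzd4, which is the receptor of the vascular ligand norrin as well as of Wnt proteins, had the highest FPKM of the receptors in all 8 libraries. It was at 10.3, 15.4, 6.34 and 7.46 FPKM in hypoxia libraries 1 to 4, against 2.49, 7.41, 11.2 and 5.94 FPKM in normoxia libraries 5 to 8. Hypoxia library 2 and normoxia library 7 were high, both with a large protein-coding share, and normoxia library 5 was low although its share was also large. The means were 9.89 ± 4.07 FPKM in hypoxia and 6.76 ± 3.60 FPKM in normoxia (SD, 4 libraries each), giving a log2 change of 0.60 ± 0.63 (SE, 95% interval -0.69 to 1.89, limma adjusted p = 0.936). With TMM scaling its log2 change was 0.79 (unadjusted p = 0.0437, limma adjusted p = 0.287), a level of unadjusted p reached by 16.5% of all tested genes in that setting.

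Fzd6, a receptor known for planar cell polarity, gave 3.26, 3.80, 1.86 and 1.34 FPKM in hypoxia libraries 1 to 4 and 0.60, 1.75, 2.78 and 1.63 FPKM in normoxia libraries 5 to 8. The upper hypoxia values were those of libraries 1 and 2, and libraries 3 and 4 fell among the normoxia values. Its log2 change was 0.51 ± 0.49 (SE, limma adjusted p = 0.917). With TMM scaling it was 0.66 (limma unadjusted p = 0.041, adjusted p = 0.279). An unadjusted p under 0.05 was reached by 16.5% of all tested genes in that setting.

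Fzd2, a receptor for both branches of the pathway, had the largest negative log2 change and the smallest p of the family. It was at 0.57, 0.65, 0.46 and 0.32 FPKM in hypoxia libraries 1 to 4, against 1.25, 0.77, 2.53 and 0.44 FPKM in normoxia libraries 5 to 8. Normoxia libraries 5, 6 and 7 exceeded every hypoxia library, and normoxia library 8 lay among them. The means of 0.50 ± 0.14 FPKM in hypoxia and 1.25 ± 0.92 FPKM in normoxia (SD, n = 4 each) gave a log2 change of -0.68 ± 0.42 (SE, 95% interval -1.55 to 0.20, unadjusted p = 0.123, limma adjusted p = 0.74). By p it ranked 2396 among 14444 genes. Markers of fibroblasts and myofibroblasts summed to 31.5 to 68.1 FPKM in hypoxia and 112.8 to 348.3 FPKM in normoxia libraries, ranges that do not meet. Most of each sum came from Col1a1, Col1a2, Col3a1 and Acta2. Dcn (log2 change 0.34) and Pdgfra (0.15) leaned the other way, the only 2 of 10 estimates above 0. These markers were named after their values were seen. As deposited 0 of 10 were called, against 0.907% of all tested genes. With TMM scaling 4 of 10 were lower, against 1.32% of all tested genes. Whether fibroblasts had a part in the Fzd2 values was not tested.

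For the other 4 tested receptors the changes were small beside their errors. Fzd1 was at 6.47, 5.92, 3.50 and 3.84 FPKM in hypoxia libraries 1 to 4, against 1.63, 6.47, 9.65 and 3.54 FPKM in normoxia libraries 5 to 8 (log2 change 0.088 ± 0.59, SE). Fzd7, which is known from stem and progenitor cells, was at 2.69, 3.08, 1.52 and 1.31 FPKM in hypoxia, against 0.68, 2.21, 5.58 and 2.21 FPKM in normoxia libraries (-0.084 ± 0.52). Fzd5 stood at 1.28, 1.71, 1.02 and 0.96 FPKM in hypoxia and at 0.18, 1.39, 1.92 and 1.18 FPKM in normoxia libraries (0.19 ± 0.45). In each of these genes normoxia library 5 was the lowest and normoxia library 7 the highest. Fzd8 followed them, with 1.11, 0.97, 0.71 and 0.76 FPKM in hypoxia and 0.34, 0.83, 1.69 and 0.80 FPKM in normoxia libraries (0.045 ± 0.41). All 4 had a limma adjusted p of 0.999.

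Normoxia library 5 was low for most Frizzled genes and mixed for the ligands. Relative to the mean of normoxia libraries 6, 7 and 8 on the log2 scale, 6 of the 7 receptors were lower in it, by differences of -1.63 (Fzd1) to -0.89 (Fzd8), and Fzd2 differed by 0.19. Among the ligands, Wnt4, Wnt7b, Wnt5b and Wnt9b differed by 1.74, 1.58, 0.99 and 0.52 in the same library, and Wnt5a by -0.71, with its lowest value there. Library 5 held the lowest value for 6 of the 7 receptors, where it did so for 32.2% of all tested genes. This was not particular to Frizzled genes, since Lrp5, Lrp6, Ryk, Ror1, Ptk7 and Kremen1 also had their lowest value there. The longest family genes tested, Fzd8, Fzd4, Fzd5 and Wnt5a (exon lengths of 5974 to 7823 bases), were all lower in library 5. Among the shorter genes the differences went both ways. A part of exon length in these differences was not tested.

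Because a share within a library does not depend on how libraries are scaled, each receptor was also expressed as a percentage of the summed Frizzled FPKM. This scale was chosen after the values were seen and is given without a test. Fzd4 made up 39.5%, 48.4%, 40.1% and 45.4% of the receptor sum in hypoxia libraries 1 to 4, against 33.7%, 35.1%, 31.0% and 36.9% in normoxia libraries 5 to 8. Every hypoxia share was above every normoxia share, with means of 43.3% ± 4.3 in hypoxia and 34.2% ± 2.5 in normoxia (SD, n = 4 each). Fzd4 was the only one of the 7 tested receptors whose shares did not overlap. Relative to the same sum, 1.89% of all tested genes were higher and 13.8% lower without overlap. Fzd4 is a large part of that sum and nearly all other genes are not in it, so these percentages are not a like comparison. Fzd1, the receptor next in abundance, made up 18.6% to 24.8% in hypoxia and 22.0% to 30.6% in normoxia libraries. Fzd2 varied widely, at 1.95% to 2.91% in hypoxia and 2.74% to 16.9% in normoxia libraries, with the highest share in library 5.

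Endothelial markers, which bear on Fzd4 as a vascular receptor, summed to 37.7 to 95.2 FPKM in hypoxia and 26.8 to 84.0 FPKM in normoxia libraries, with 0 of 8 called, against 0.907% of all tested genes. The part of these markers' cells in the Fzd4 share was not tested. Norrin itself (Ndp), whose value was looked up after that of Fzd4, was at 0.09 and 0.07 FPKM in hypoxia libraries 1 and 2 and listed at 0 in the other 6 libraries.

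**Figure D3:**
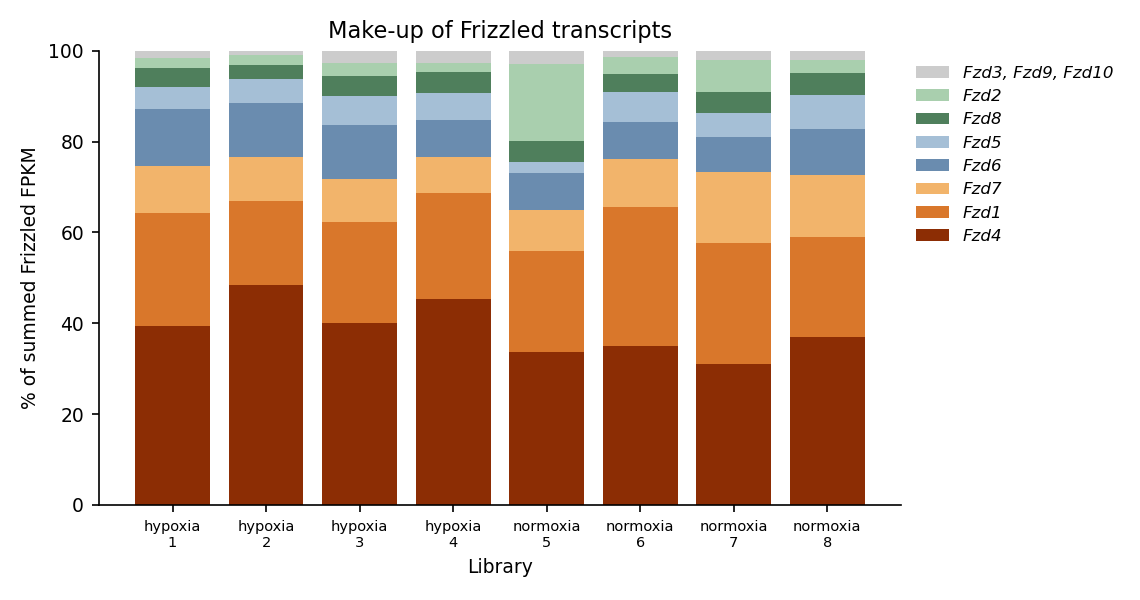
Make-up of the summed Frizzled FPKM in each library, in percent, with hypoxia libraries 1 to 4 left of normoxia libraries 5 to 8. Fzd4, at the foot of each bar, takes 39.5% to 48.4% in hypoxia and 31.0% to 36.9% in normoxia, and Fzd2 takes 16.9% in normoxia library 5.

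Among the inhibitors, Sfrp1, which binds Wnt proteins outside the cell, had the highest mean FPKM of the family over the 8 libraries (10.2, against 8.32 for Fzd4). Over the hypoxia libraries alone Fzd4 had the higher mean. Sfrp1 was at 11.9, 7.84, 7.18 and 8.75 FPKM in hypoxia libraries 1 to 4, against 11.0, 7.93, 21.1 and 6.10 FPKM in normoxia libraries 5 to 8. Apart from the high value of normoxia library 7 the groups covered a similar range. The means were 8.93 ± 2.10 FPKM in hypoxia and 11.5 ± 6.7 FPKM in normoxia (SD, n = 4 each), and the log2 change was -0.23 ± 0.63 (SE, 95% interval -1.53 to 1.08, limma adjusted p = 0.999). Sfrp1 made up 90.3% to 95.8% of all Sfrp FPKM in hypoxia and 86.2% to 94.3% in normoxia libraries. Sfrp2, its stromal relative, was close to the limit for testing at 0.85, 0.60, 0.35 and 0.26 FPKM in hypoxia libraries 1 to 4, against 0.37, 0.67, 1.35 and 0.20 FPKM in normoxia libraries 5 to 8 (log2 change -0.11 ± 0.41, SE, limma adjusted p = 0.999).

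Dkk3 is a divergent Dkk protein, secreted by stressed kidney tubule cells, that does not act on the co-receptors as Dkk1 does. It was at 2.30, 7.57, 1.54 and 1.83 FPKM in hypoxia libraries 1 to 4, against 3.55, 3.80, 7.80 and 2.07 FPKM in normoxia libraries 5 to 8. Hypoxia library 2 stood far above the other 3 hypoxia libraries, and normoxia libraries 5, 6 and 7 were each above those 3. The means were 3.31 ± 2.86 FPKM in hypoxia and 4.30 ± 2.45 FPKM in normoxia (SD, 4 libraries each), giving a log2 change of -0.45 ± 0.56 (SE, limma adjusted p = 0.973). Dkk2, an inhibitor that binds Lrp5 and Lrp6, was at 3.19, 1.71, 1.98 and 1.98 FPKM in hypoxia and at 2.04, 2.14, 3.15 and 1.64 FPKM in normoxia libraries. Its means were 2.22 ± 0.66 FPKM in hypoxia and 2.24 ± 0.64 FPKM in normoxia (SD, 4 libraries each), giving a log2 change of -0.016 ± 0.46 (SE, 95% interval -0.97 to 0.94).

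**Figure D4:**
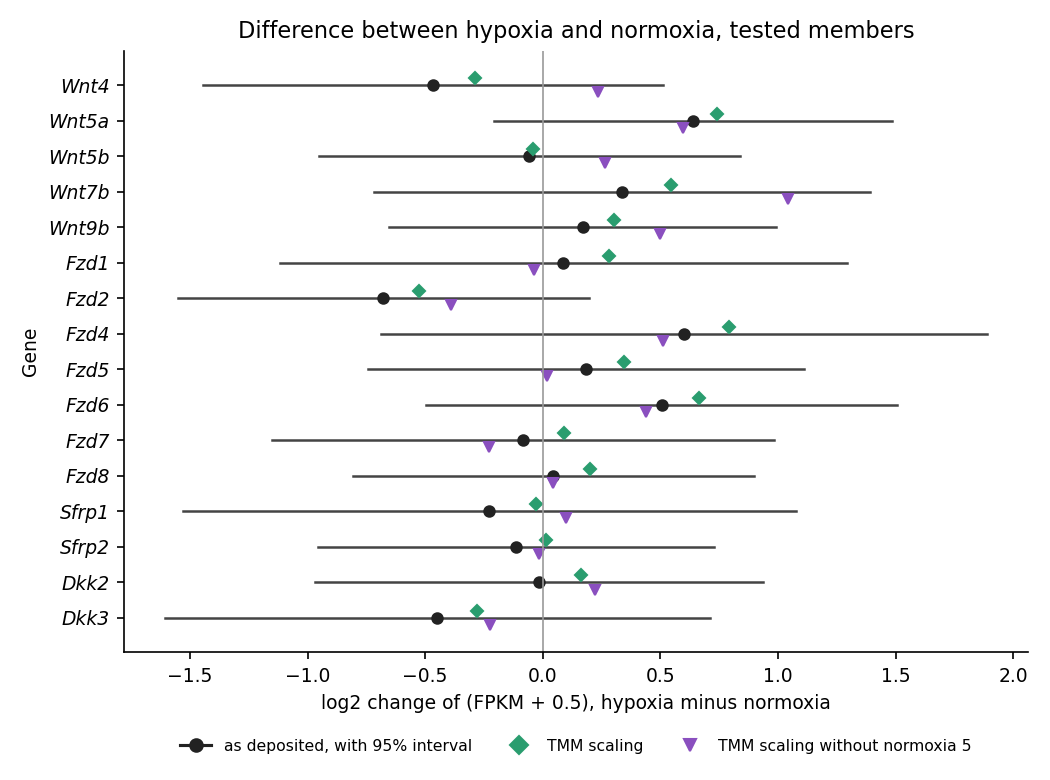
Log2 change of FPKM + 0.5, hypoxia minus normoxia, for the 16 tested genes, with the 95% interval of the limma fit as deposited (black), and the estimates with TMM scaling (green diamonds) and with TMM scaling without normoxia library 5 (purple triangles). All 16 intervals include 0, from -1.60 at the lowest to 1.89 at the highest.

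The remaining 17 genes had means below 0.5 FPKM and were not tested. They were the 11 ligands Wnt2, Wnt2b, Wnt3a, Wnt6, Wnt7a, Wnt8b, Wnt9a, Wnt10a, Wnt10b, Wnt11 and Wnt16, the 3 receptors Fzd3, Fzd9 and Fzd10, and Sfrp4, Sfrp5 and Dkk1. Of these, 13 were listed at 0 in at least 1 library, Wnt3a in all 8, and Fzd3, Sfrp4, Wnt2b and Wnt9a were above 0 in every library. Wnt10a had the highest mean of this set and its highest single value, 1.82 FPKM in normoxia library 5, and was at 0.20, 0.20, 0.05 and 0 FPKM in hypoxia and 0.19, 0.62 and 0 FPKM in normoxia libraries 6, 7 and 8. At the estimated depth of 8420000 to 14400000 fragments per library, these genes were each measured on at most about 103 fragments in a library, so a value of 0 does not show that a gene was absent.

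For 2 of the 17 the groups did not overlap, both with lower values after hypoxia, where 1.46% of all genes in this range of levels were lower and 0.931% higher without overlap (2.39% in all). Sfrp4, a secreted relative of Sfrp1, was at 0.20, 0.13, 0.10 and 0.12 FPKM in hypoxia libraries 1 to 4, against 0.21, 0.38, 0.62 and 0.30 FPKM in normoxia libraries 5 to 8. These values correspond to roughly 4 to 10 fragments in hypoxia and 11 to 37 in normoxia libraries, and the nearest values of the groups, 0.20 and 0.21 FPKM, differ by little. Wnt7a, the closest relative of Wnt7b, was at 0.03 FPKM in hypoxia library 1 and listed at 0 in hypoxia libraries 2, 3 and 4, against 0.13, 0.10, 0.24 and 0.12 FPKM in normoxia libraries 5 to 8, or about 3 to 11 fragments. In a fit without the filter on level, Sfrp4 had an unadjusted p of 0.0416 (limma adjusted p = 0.732) and Wnt7a an unadjusted p of 0.0021 (limma adjusted p = 0.415), in a setting where 6.52% of 30982 genes had an unadjusted p under 0.05 and 0% were called.

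Genes that carry the signal inside the cell were not called either. Of 20 tested genes of intracellular transduction, 12 of planar polarity and calcium signalling, 6 co-receptors and alternative receptors and 3 TCF and LEF factors, none was called by limma, also before adjustment (0 with an unadjusted p below 0.05), where 0.907% of all tested genes were called and 9.36% had such a p. The list medians were -0.073, -0.077, 0.19 and -0.081 on the log2 scale. The smallest p-values in these lists belonged to the kinase gene Csnk1e (log2 change -0.59, limma adjusted p = 0.884) and Apc (0.50, limma adjusted p = 0.911), to the polarity genes Celsr2 (0.55, limma adjusted p = 0.915) and Vangl1 (-0.46, limma adjusted p = 0.931), to Lrp6 (0.69, limma adjusted p = 0.881) and Ptk7 (-0.42, limma adjusted p = 0.944), and to Tcf7 (-0.34, limma adjusted p = 0.96) and Tcf7l2 (0.095, limma adjusted p = 0.999). Beta-catenin itself (Ctnnb1), named here after its values were seen, was at 26.6 ± 13.4 FPKM in hypoxia and 32.6 ± 24.5 FPKM in normoxia (SD, n = 4 each). Among genes for R-spondin receptors and receptor turnover, Lgr4 (log2 change 1.09 ± 0.66, SE, limma adjusted p = 0.708) and Znrf3 (0.078 ± 0.41, limma adjusted p = 0.999) were the 2 tested and neither passed.

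Among genes of Wnt secretion and other secreted modulators (3 tested in each list), none passed as deposited, and 1 of each list passed as higher with TMM scaling. Notum encodes the enzyme that strips the lipid from Wnt proteins and so inactivates them. It was at 2.48, 4.90, 1.08 and 1.03 FPKM in hypoxia libraries 1 to 4, against 0.34, 0.82, 0.32 and 0.18 FPKM in normoxia libraries 5 to 8, and the groups did not overlap (1.86% of all tested genes were higher without overlap). The log2 change was 1.49 ± 0.46 (SE, limma adjusted p = 0.133), and with TMM scaling it passed (1.57, limma adjusted p = 0.0346). Sostdc1, a secreted antagonist of BMP and Wnt signals made in the distal tubule, was at 31.5, 34.8, 15.3 and 15.8 FPKM in hypoxia libraries, against 3.31, 5.97, 17.0 and 4.23 FPKM in normoxia libraries, where normoxia library 7 exceeded hypoxia libraries 3 and 4. Its log2 change was 1.79 ± 0.69 (SE, limma adjusted p = 0.308), and 1.99 with TMM scaling (limma adjusted p = 0.0213), a setting in which 2.53% of all tested genes were called. For the distal convoluted and connecting tubule, markers summed to 57.2 to 95.1 FPKM in hypoxia and 14.0 to 32.8 FPKM in normoxia libraries. As deposited 2 of 5 of these markers were higher (1 without normoxia library 7), against 0.305% of all tested genes, and their part in the Sostdc1 values was not tested. Next by p in these lists were Porcn, the enzyme that adds the lipid to Wnt proteins (log2 change 0.22, limma adjusted p = 0.999), and Frzb, a secreted Frizzled-related protein (-0.20, limma adjusted p = 0.999).

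**Figure D5:**
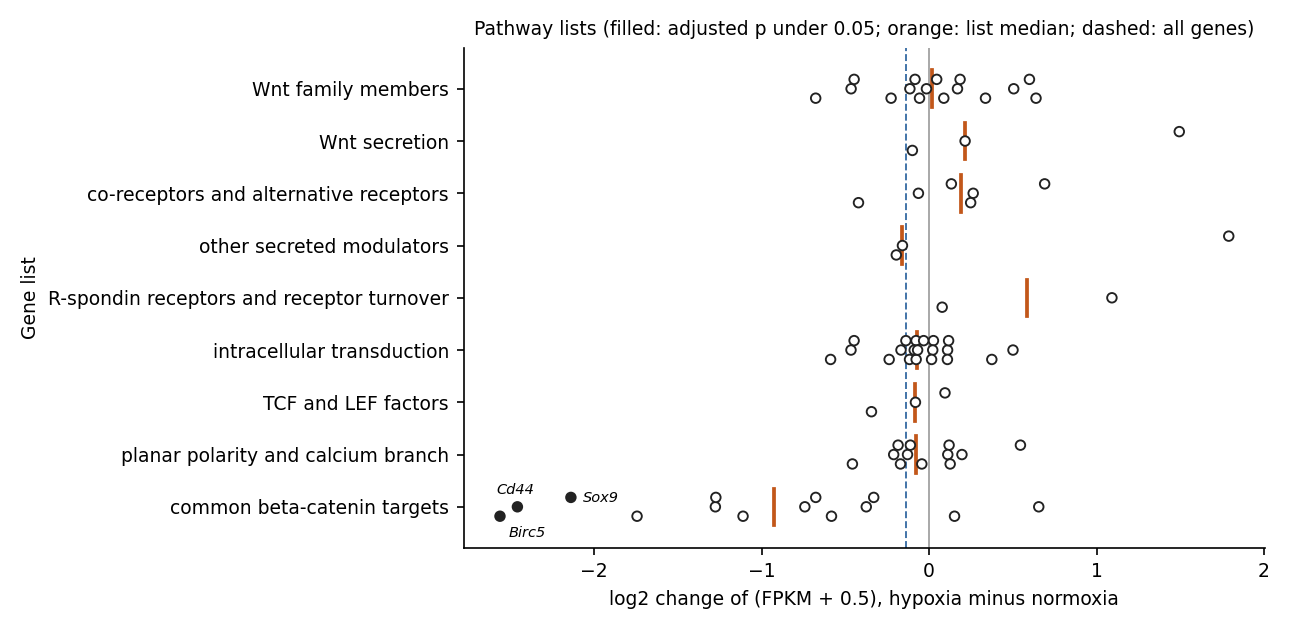
Log2 change, hypoxia minus normoxia, of each tested gene in the Wnt family and in 8 lists of pathway genes, with filled points for an adjusted p under 0.05, list medians in orange and the median of all tested genes (-0.14) as a dashed line. The family centres on 0.015 with no filled point, and the 3 filled points are Birc5, Cd44 and Sox9 among the beta-catenin targets.

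Of the 8 pathway lists, only that of commonly cited beta-catenin targets held called genes as deposited. In it 3 of 14 were lower and none higher, where 0.602% of all tested genes were lower. The median log2 change of this list was -0.93. Birc5, the mitotic gene of survivin, was at 1.86, 0.75, 0.12 and 0.07 FPKM in hypoxia libraries 1 to 4, against 4.44, 2.73, 16.7 and 4.11 FPKM in normoxia libraries 5 to 8 (log2 change -2.56 ± 0.56, SE, limma adjusted p = 0.0265). All hypoxia values of Birc5 were below all its normoxia values, a separation found for 3.06% of all tested genes. Sox9, a transcription factor of regenerating tubule cells, was at 0.66, 0.41, 0.17 and 0.20 FPKM in hypoxia, against 1.46, 3.08, 6.05 and 3.55 FPKM in normoxia libraries, also without overlap (-2.14 ± 0.45, limma adjusted p = 0.0221). The hyaluronan receptor gene Cd44 was at 1.95, 0.78, 0.41 and 0.24 FPKM in hypoxia, against 1.63, 6.48, 15.8 and 7.44 FPKM in normoxia libraries (-2.46 ± 0.57, limma adjusted p = 0.0356), and normoxia library 5 fell among its hypoxia values. Sox9 and Cd44 also belong to the list of injured tubule markers. Without normoxia library 7 all 3 calls were lost (limma adjusted p = 0.122 to 0.222), with log2 changes of -1.86 for Sox9, -2.05 for Birc5 and -2.02 for Cd44. They were also lost when the paired hypoxia libraries were averaged (limma adjusted p = 0.183 to 0.268), with log2 changes of -2.13, -2.53 and -2.42 in the same order. With libraries scaled to a common sum over protein-coding genes Birc5 alone passed. The Birc5 call was also lost without normoxia library 5 (limma adjusted p = 0.0784), and the Cd44 call without hypoxia library 2, 3 or 4 (limma adjusted p = 0.0544 to 0.066) or with a pseudocount of 1 (limma adjusted p = 0.06).

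These 3 genes are known to answer to many signals besides beta-catenin. Of the genes regarded as direct feedback targets, picked out here after their values were seen, Axin2 was at 0.26, 0.30, 0.25 and 0.22 FPKM in hypoxia libraries 1 to 4, against 0, 0.57, 0.51 and 0.21 FPKM in normoxia libraries 5 to 8, too low to be tested. Nkd1 was at 0.80, 0.47, 0.52 and 0.55 FPKM in hypoxia, against 1.25, 1.04, 2.66 and 0.74 FPKM in normoxia libraries (log2 change -0.74 ± 0.42, SE, limma adjusted p = 0.669). Sp5 leaned the other way, with 1.63, 2.27, 0.62 and 0.68 FPKM in hypoxia and 0.73, 0.37, 1.17 and 0.21 FPKM in normoxia libraries (0.65 ± 0.44, limma adjusted p = 0.784). Nkd2, a relative of Nkd1 too low to be tested, was at 0.18, 0.12, 0.16 and 0.07 FPKM in hypoxia, against 0.32, 0.44, 0.72 and 0.39 FPKM in normoxia libraries, lower without overlap. Among all genes above 0 with a mean under 0.5 FPKM, 1.46% were lower without overlap. Of the genes picked out here, Nkd1 and Sp5 were tested, and neither passed as deposited. Notum and Znrf3, tested in other lists, are described above and are not counted here. With TMM scaling without normoxia library 5, Sp5 passed as higher (0.93, limma adjusted p = 0.027). Markers of injured tubules summed to 231.9 to 2396 FPKM in hypoxia and 1047 to 4406 FPKM in normoxia libraries, most of it from Spp1 (log2 change -1.0, limma adjusted p = 0.9). Without Spp1, a split made after the values were seen, the other 7 summed to 8.08 to 137.1 FPKM in hypoxia and 250.1 to 666.6 FPKM in normoxia libraries, with log2 changes of -4.03 (Timp1) to -2.14 (Sox9). As deposited 4 of 8 were lower, against 0.602% of all tested genes. The count was 0 without normoxia library 7, without a filter, with a filter of 0.1 FPKM, without a variance trend and with the paired hypoxia libraries averaged. It was 2 without hypoxia library 3 or 4 or normoxia library 5, with a pseudocount of 1 and with the common sum. Without hypoxia library 1 it was 7, and also with TMM scaling without normoxia library 5. The part of these markers in the 3 calls was not tested.

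Some of the family genes share sequence with genes on the other strand. In the GENCODE M21 annotation of GRCm38, Wnt5a (chromosome 14, 28504750 to 28527448), Wnt7b (chromosome 15, 85535437 to 85582473), Fzd5 (chromosome 1, 64730558 to 64737751), Fzd6 (chromosome 15, 39006034 to 39038188) and Sfrp2 (chromosome 3, 83766321 to 83774316) each overlap an exon of an opposite-strand gene, over 3.15% to 17.8% of their own exon length. The libraries were stranded, but whether strand was used in the quantification is not given in the sources used here, so a part of these values could come from the partner gene. Fzd4 (chromosome 7, 89404355 to 89413134), Fzd2 (chromosome 11, 102604396 to 102608058), Sfrp1 (chromosome 8, 23411502 to 23449632) and Wnt4 (chromosome 4, 137277489 to 137299726) had no such overlap.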

How the data were processed

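Poly(A) RNA of mouse kidney was sequenced from 8 TruSeq stranded mRNA libraries, per the labels' protocols. The submitters' processing notes name HISAT2, StringTie and edgeR, without versions or roles. The genome build is not given in the sources used here. What the authors deposited is FPKM per gene and library in 2 decimals, per the file headers, with no recorded scaling between libraries. All 34450 gene identifiers matched GENCODE M21 (GRCm38), which supplied symbols, lengths and positions.

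Genes with a mean of at least 0.5 FPKM over the 8 libraries (14444) were tested as log2(FPKM + 0.5) by two-sided moderated tests in limma 3.58.1 under R 4.3.3 (empirical Bayes variances with a mean trend, not robust), the group being the only factor, with Benjamini-Hochberg adjustment over all tested genes. Every adjusted p is from this fit unless a setting is named. Its standard errors borrow spread from genes of like level, and the pseudocount shrinks the fold changes of low genes. The step was run on simulated data with independent noise for each gene and library and with added changes larger than any estimate of the family. That simulation held no differences shared by the genes of a library, so it does not show how such differences affect these results. TMM factors, a trimmed weighted mean of log ratios (30% and 5% trimmed), were computed from FPKM and used as a scaling only. Read counts were not used here. Depth was judged from single-exon genes of 600 to 3000 bases with low values of at least 0.04 FPKM. The most frequent product of FPKM and length among them was assumed to be a single fragment, without an interval.

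The family and the lists (8 of pathway genes, 12 of markers) were chosen with earlier results of these data known. In the list of beta-catenin targets 1 gene is not reported here and enters none of the list's counts. Named genes were all family genes, per library where tested, and in each pathway list up to 6 called genes, or the 2 with the smallest p; genes named beyond this are marked in the text. Alternatives were pseudocounts of 0.1 and 1, filters of none, 0.1 and 2 FPKM, 3 scalings, 2 variance settings, an adjusted p of 0.10, each library left out, and combinations of libraries.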

Additional observations from a re-analysis of the deposited data

Results flagged for a closer look

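Among 63 groups of 4 libraries with any spread, 8 held a library that stood far from the remaining 3 of its group, where chance flags about 1 in 20. Only 2 of these were in tested genes. Dkk3 was at 7.57 FPKM in hypoxia library 2 and at 1.54 to 2.30 FPKM in the other hypoxia libraries. Wnt5a was at 1.73 FPKM in hypoxia library 1 and at 1.07 to 1.12 FPKM in the others. The other 6 were genes listed at 0 in the remaining 3 libraries, where a few fragments make the difference. With the remaining 3 at 0 any value is flagged, so the rate of 1 in 20 does not hold for these 6. They were Dkk1 with 0.10 FPKM in normoxia library 7, Sfrp5 with 0.11 FPKM in hypoxia library 2, Wnt10b with 0.07 FPKM in hypoxia library 3 and 0.03 FPKM in normoxia library 6, Wnt7a with 0.03 FPKM in hypoxia library 1, and Wnt8b with 0.15 FPKM in normoxia library 6.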

How the results depend on the processing

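No Wnt family gene was called higher or lower (0 and 0) under any of the 22 alternatives, and the smallest limma adjusted p of a family gene in any of them was 0.129, for Wnt7b with TMM scaling without normoxia library 5. Fzd2, Fzd4, Fzd6, Wnt5a and Dkk3 kept the sign of their estimate in all alternatives in which they were tested, but not its size. With single libraries left out it ranged from -0.93 to -0.37 for Fzd2, 0.23 to 0.88 for Fzd4, 0.21 to 0.73 for Fzd6, 0.46 to 0.82 for Wnt5a and -0.89 to -0.14 for Dkk3, and for Wnt4 from -0.85 to -0.030. The other 11 changed sign in at least 1, always without passing the test. Dkk2 was at 0.16 with TMM scaling, 0.19 with quantile normalization, 0.19 with a common sum over protein-coding genes, 0.22 with TMM scaling without library 5 and 0.0078 with hypoxia libraries averaged in pairs. Sfrp1 was at 0.074, 0.019 and 0.10 under quantile normalization, the common sum and TMM scaling without library 5, and Wnt5b at 0.024, 0.011 and 0.26, and at 0.0050 with the pairs averaged. Fzd7 was at 0.088, 0.013 and 0.021 under TMM scaling, quantile normalization and the common sum, and Sfrp2 at 0.013 and 0.021 under TMM scaling and quantile normalization. TMM scaling without library 5 gave -0.036 for Fzd1 and 0.23 for Wnt4. Leaving out hypoxia libraries 1 and 2 together gave -0.25 for Fzd1, -0.021 for Fzd5 and -0.11 for Fzd8. The cause of these sign changes was not tested.

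With single libraries left out, the estimates of genes that changed sign ranged from -0.17 to 0.13 for Dkk2, -0.32 to 0.43 for Fzd1, -0.20 to 0.41 for Fzd5, -0.48 to 0.31 for Fzd7, -0.18 to 0.28 for Fzd8, -0.47 to 0.11 for Sfrp1, -0.32 to 0.012 for Sfrp2, -0.25 to 0.30 for Wnt5b, -0.13 to 0.73 for Wnt7b and -0.047 to 0.30 for Wnt9b.

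The number of all tested genes higher (44) and lower (87) depended strongly on the setting. It became 0 and 0 without a filter (unadjusted p under 0.05 in 6.52%), 13 and 4 with a filter of 0.1 FPKM, 175 and 191 with TMM scaling, 280 and 349 with quantile normalization, 89 and 142 with the common sum, 17 and 8 without a variance trend, 831 and 767 with TMM scaling without library 5, 23 and 4 with the pairs averaged, and 74 and 201 at an adjusted p of 0.10. The number lower was 47 with a pseudocount of 1 and 348 without hypoxia libraries 1 and 2. With single libraries left out it ranged from 11 (without normoxia library 7) to 67 (without hypoxia library 4) for genes higher and from 4 (without normoxia library 7) to 237 (without normoxia library 8) for genes lower. Over all tested genes the median log2 change was 0.016 under TMM scaling and -0.14 as deposited, and over the family 0.18 and 0.015. The number of beta-catenin targets lower was 3 as deposited, 7 with TMM scaling without library 5, 1 with the common sum, and 0 without a filter, with a filter of 0.1 FPKM, without a variance trend, with the pairs averaged and without normoxia library 7.

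No paired analysis was possible because the groups share no replicate numbers.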

Other observations

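The markers of other cell types in the same kidneys differed in how far they moved. By limma none of 6 podocyte, 7 urothelial or papillary surface, 5 intercalated cell, 8 proximal tubule and 5 thin limb and inner medulla markers passed as deposited (0, 0, 1, 1 and 2 at an unadjusted p below 0.05), with list medians of -0.082, 0.22, 0.20, 1.07 and 1.26 on the log2 scale. Over all tested genes 9.36% had such a p. Of 6 thick ascending limb markers 2 were higher (median 1.46), against 0.305% of all tested genes, and 1 was higher without hypoxia library 2 or normoxia library 7. None of 10 macrophage and monocyte markers passed as deposited (8 at an unadjusted p below 0.05), with a median of -1.72 and 0 of 10 estimates above 0, and 3 were lower with TMM scaling, against 1.32% of all tested genes. The median of the fibroblast list was -1.06, of the injured tubule list -2.78, of the endothelial list 0.33, of the principal cell list 1.04 and of the distal tubule list 1.45. No gene of these 12 lists was at 0 in all libraries.

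Wnt6 and Wnt10a lie next to each other on the plus strand of chromosome 1 in GRCm38, with 6193 bases between them. Both had their highest value in normoxia library 5, at 0.14 FPKM for Wnt6 and 1.82 FPKM for Wnt10a, and both were listed at 0 in hypoxia library 4 and normoxia library 8. At these levels Wnt6 rests on about 4 fragments in library 5 and Wnt10a on about 61. Wnt3a and Wnt9a, 16175 bases apart on chromosome 11, did not follow each other, since Wnt3a was listed at 0 throughout while Wnt9a was at 0.22 to 0.48 FPKM in hypoxia and 0.11 to 0.59 FPKM in normoxia libraries.

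Fzd3, a polarity receptor, was at 0.21 to 0.31 FPKM in hypoxia and 0.16 to 0.56 FPKM in normoxia libraries. Rnf43 and Lgr6, genes of receptor turnover and R-spondin reception that were too low to be tested as deposited, had groups that did not overlap, both higher after hypoxia. Rnf43, which removes Frizzled receptors from the cell surface, was at 0.55 to 0.69 FPKM in hypoxia and 0.29 to 0.49 FPKM in normoxia libraries. Lgr6 was at 0.09 to 0.22 FPKM in hypoxia and 0 to 0.06 FPKM in normoxia libraries. In this range of levels 0.931% of all genes were higher and 1.46% lower without overlap, and these 2 genes were picked out after their values were seen.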
